A study of Rattus norvegicus with 6 samples.

Results

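The mitotic kinesins described here are 10 genes, Kif11, Kif14, Kif15, Kif18a, Kif18b, Kif20a, Kif20b, Kif22, Kif23 and Kif2c, taken by gene name from a table of 33589 rows in which each has exactly 1 row. The samples were rat mesenchymal stem cells from bone marrow (MSCs, progenitors of osteoblasts, chondrocytes and adipocytes), sequenced as polyA RNA after they had spent 48 h in a hydrogel the labels call SA. One group of 3 libraries came from stiff gel of 18 kPa and the other, also of 3, from soft gel of 2 kPa. All cells grew in low-glucose medium with serum and antibiotics and were taken out of the gel before RNA extraction, and the labels give no strain, age or number of animals. No source used here says whether the replicates are separate cultures; p-values therefore cover only the spread between these libraries, which may be technical.

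Kinesins are motor proteins that turn ATP into movement along microtubules. The mitotic members build and hold the bipolar spindle, trim microtubule ends, push chromosomes to the spindle equator, and lay down the central spindle that guides cytokinesis. Most of them are made late in the cell cycle, in G2 and M phase, and their transcripts are scarce in cells that do not divide. The roles given below are known mainly from human and mouse cells.

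All 10 genes had higher mean levels in stiff than in soft gel, and 9 of the 10 had every stiff library above every soft one. The latter held for all 8 tested members and for 11.7% of all tested genes. Of these members, Kif18b and Kif20b entered the test through their stiff libraries. Kif20a (1.54-fold) and Kif23 (1.74-fold), which act in cytokinesis, rose by the test across all genes, in which 1.01% of genes were called higher. Neither call held when any 1 library was left out. The other 8 did not pass or lay below the level filter. The largest ratio of mean levels was that of Kif18b, 2.00-fold, and the smallest that of Kif22, 1.27-fold. Levels are in FPKM (read fragments per kilobase, scaled by library size), as the authors deposited them. The tests were made on log2(FPKM + 1) with limma over 12713 genes whose mean reached 1 FPKM, and p-values were adjusted by Benjamini-Hochberg over all of them. The log2 fold changes below are on that scale, which understates the change of low genes, whereas folds are ratios of mean FPKM. In bulk RNA, fewer cells of a type and less RNA per cell cannot be told apart.

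The promoters of the members are shown because many G2 and M phase genes carry a pair of short elements there: the CCAAT box, bound by NF-Y, and the cell cycle homology element, bound by the DREAM and MuvB complexes. RefSeq windows of the rat build GRCr8, from 250 bases before to 50 bases after a gene start, were matched by symbol for 9 of the 10 members, with 2 windows for Kif2c; Kif14 is the gene without one. The letters searched were CCAAT or its reverse ATTGG, and TTTGAA, its reverse TTCAAA, or TTCGAA. The 2 motifs share no letters of overlap in these windows. Each sequence reads 5′ to 3′ on the gene's strand, with matches in capitals. Kif20a and Kif23 are shown as the called members, and Kif20b and Kif22 because they, with Kif23, hold both motifs.
Kif20a (chr18:26504172-26504471, + strand): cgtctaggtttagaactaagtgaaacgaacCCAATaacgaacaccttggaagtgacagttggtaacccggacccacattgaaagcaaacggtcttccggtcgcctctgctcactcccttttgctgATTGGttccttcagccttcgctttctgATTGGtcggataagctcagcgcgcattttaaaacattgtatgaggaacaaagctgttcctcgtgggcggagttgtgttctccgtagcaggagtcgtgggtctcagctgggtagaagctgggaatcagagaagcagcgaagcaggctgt
Kif23 (chr8:71320535-71320834, - strand): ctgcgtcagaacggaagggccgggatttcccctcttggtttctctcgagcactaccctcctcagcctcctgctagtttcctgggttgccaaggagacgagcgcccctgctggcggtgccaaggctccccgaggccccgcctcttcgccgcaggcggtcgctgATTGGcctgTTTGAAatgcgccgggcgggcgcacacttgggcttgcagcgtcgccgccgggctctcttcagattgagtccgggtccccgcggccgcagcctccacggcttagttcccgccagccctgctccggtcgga
Kif20b (chr1:241840766-241841065, + strand): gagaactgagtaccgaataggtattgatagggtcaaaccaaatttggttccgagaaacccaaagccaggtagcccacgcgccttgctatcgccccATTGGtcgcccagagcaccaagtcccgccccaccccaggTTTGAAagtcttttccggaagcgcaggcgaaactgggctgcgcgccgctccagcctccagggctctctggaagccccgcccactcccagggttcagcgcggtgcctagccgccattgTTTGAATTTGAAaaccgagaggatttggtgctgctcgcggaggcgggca
Kif22 (chr1:191080829-191081128, - strand): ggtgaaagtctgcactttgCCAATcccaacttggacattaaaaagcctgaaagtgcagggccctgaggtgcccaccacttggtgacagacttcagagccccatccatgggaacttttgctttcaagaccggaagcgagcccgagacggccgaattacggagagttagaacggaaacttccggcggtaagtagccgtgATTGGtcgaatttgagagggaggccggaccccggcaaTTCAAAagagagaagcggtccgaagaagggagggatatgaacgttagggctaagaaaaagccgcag

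A CCAAT box was found in 5 of the 10 windows (Kif11, Kif20a, Kif20b, Kif22 and Kif23), against 37.5% of all 33469 windows of that length. The cell cycle homology element was found in 4 of the 10 (Kif15, Kif20b, Kif22 and Kif23), against 19.7% of all windows. Both occurred in 3 windows, against 8.0% of all. In Kif23 they lay next to each other, with the reverse CCAAT box starting 88 bases and the homology element 79 bases upstream of the start. In Kif22 the closest pair started 53 and 16 bases upstream. Kif20a held 3 CCAAT boxes, at 220, 125 and 98 bases upstream, and no homology element with these letters. A match is a description of the letters and not a measured site. No match was found in the windows of Kif18a, Kif18b and Kif2c, which says only that these letters are not in those windows.

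**Figure D1:**
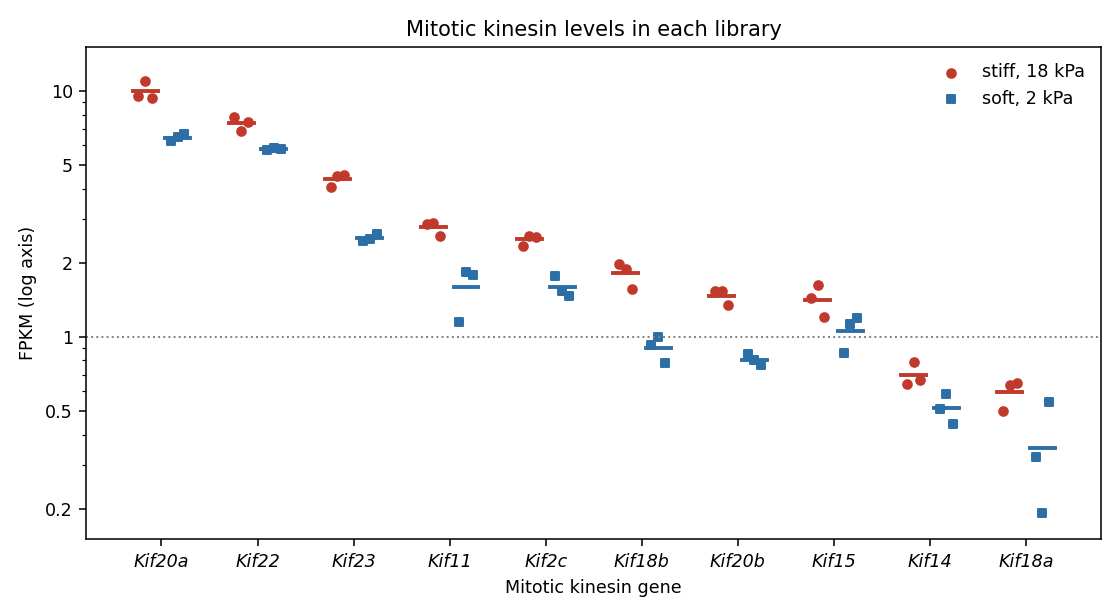
FPKM (log axis) of the 10 mitotic kinesins in each library, ordered by their mean in stiff gel; circles are the 3 stiff and squares the 3 soft libraries, short lines are group means and the dotted line marks 1 FPKM. Every stiff library lies above every soft one except for Kif18a, and Kif15 is parted by the narrowest gap, 1.20 against 1.19 FPKM.

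In stiff gel the members' levels ran from 9.95 ± 0.887 FPKM for Kif20a down to 0.595 ± 0.0832 FPKM for Kif18a, and in soft gel from 6.45 ± 0.216 down to 0.353 ± 0.178 FPKM for the same genes (SD, n = 3 each). The order by mean level in stiff gel was Kif20a, Kif22, Kif23, Kif11, Kif2c, Kif18b, Kif20b, Kif15, Kif14 and Kif18a. Neighbouring genes overlapped in stiff gel in only 2 places of this order, Kif20b with Kif15 and Kif14 with Kif18a. By mean level in soft gel, Kif2c, Kif11, Kif15, Kif18b and Kif20b followed Kif23 in that order, and within these 5 each gene overlapped the next, as did Kif14 with Kif18a. Kif20a alone made up 29.1% to 32.0% of the members' summed FPKM in stiff gel and 29.6% to 30.2% in soft gel.

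The members' FPKM summed to 32.7, 34.3 and 31.9 in stiff replicates 1 to 3, and to 20.8, 21.9 and 22.0 in soft replicates 1 to 3. The groups did not overlap, and the spread within each was small beside the gap. As a share of the FPKM of all kinesin genes in the table, the 10 made up 11.1% to 11.9% in stiff gel and 6.94% to 7.91% in soft gel. Reads recovered from the FPKM came to 14966354 to 16711527 per library over all genes. Soft replicate 1 stood apart in its mitochondrial reads, 2.15% of its total, against 2.85% to 3.33% in stiff gel and 2.99% and 3.13% in the other soft libraries.

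Of the cytokinesis motors, Kif20a carries the chromosomal passenger complex to the central spindle. It stood at 9.51, 11.0 and 9.37 FPKM in stiff gel, against 6.22, 6.48 and 6.65 FPKM in soft gel, so that the lowest stiff library lay well above the highest soft one. Its log2 fold change was 0.55 (SE 0.0798, 95% interval 0.37 to 0.74), with an adjusted p of 0.0243 by limma and higher values in 3 of 3 stiff libraries. It rested on 414 to 518 reads per stiff library and 305 to 316 per soft library. The table places Kif20a (ENSRNOG00000024428) on the + strand of chromosome 18 from 27424328 to 27432814, in coordinates whose build it does not name.

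Kif23 forms centralspindlin together with Racgap1 and bundles the microtubules of the midzone. It was at 4.05, 4.52 and 4.56 FPKM in stiff gel and at 2.46, 2.48 and 2.61 FPKM in soft gel, with soft libraries close together and all below the stiff ones. The log2 fold change was 0.61 (SE 0.0877, 95% interval 0.41 to 0.82; limma adjusted p = 0.0243). Both calls were lost when any 1 library was left out: the limma adjusted p of Kif20a then ran from 0.0546 to 0.106 and that of Kif23 from 0.0537 to 0.118, while their log2 fold changes stayed between 0.49 and 0.66. Kif23 (ENSRNOG00000014080) lies on the - strand of chromosome 8 from 66866082 to 66893196 in the table.

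With Kif20a and Kif23, 2 of the 8 tested members were called higher, and none was called lower. Over all 12713 genes, 1.01% were called higher and 0.425% lower in stiff gel. Members called lower also numbered 0 at an unadjusted p under 0.05 and 0 by voom, while 7 of the 8 were higher at an unadjusted p under 0.05, as were 8.46% of all tested genes. Kif18b and Kif20b were below 1 FPKM in soft gel and passed the level filter through their stiff libraries, so these counts describe the tested members only. Their median log2 fold change was 0.50, against 0.00 over all tested genes.

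Kif20b, a motor of the midbody needed for the end of cytokinesis, had 1.53, 1.53 and 1.34 FPKM in stiff gel, against 0.850, 0.804 and 0.764 FPKM in soft gel. Its 1.82-fold difference parted the groups but did not pass (log2 fold change 0.45, SE 0.123, limma adjusted p = 0.153). Kif14, which brings citron kinase to the midbody, lay under the level filter, with 0.642, 0.789 and 0.667 FPKM in stiff gel and 0.510, 0.584 and 0.441 FPKM in soft gel. The groups were parted by a narrow gap on 36 to 64 reads per library. With the filter lowered to 0.3 FPKM, chosen after seeing the data, Kif14 had a log2 fold change of 0.17 and a limma adjusted p of 0.572; 0.68% of the 14853 genes were called higher at that filter.

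Of the motors that set spindle shape, Kif11 slides antiparallel microtubules apart to make the spindle bipolar. It had 2.87, 2.90 and 2.58 FPKM in stiff gel, against 1.15, 1.83 and 1.78 FPKM in soft gel. Soft replicate 1 was the lowest by far, and the SD in soft gel was 0.382 FPKM, against 0.179 FPKM in stiff gel. The 1.75-fold difference did not pass (log2 fold change 0.56, SE 0.138, limma adjusted p = 0.119), and without soft replicate 1 the log2 fold change was 0.43.

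Kif15 can hold the bipolar spindle when Kif11 is blocked. It had 1.43, 1.62 and 1.20 FPKM in stiff gel, against 0.859, 1.12 and 1.19 FPKM in soft gel, and stiff replicate 3 nearly met soft replicate 3. Of the 8 tested members it was the only one whose 95% interval of the log2 fold change reached below 0, at -0.09 to 0.55 around 0.23 (limma adjusted p = 0.478). An interval this wide leaves room for no change and for a rise as large as that of Kif20a.

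Kif2c, Kif18a and Kif18b act at microtubule ends. Kif2c, a depolymerase that removes wrong attachments at centromeres, had 2.34, 2.56 and 2.55 FPKM in stiff gel, against 1.77, 1.54 and 1.46 FPKM in soft gel. The groups did not overlap, yet the difference of 1.56-fold did not pass (log2 fold change 0.43, SE 0.106, limma adjusted p = 0.120).

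Kif18b, which works with Kif2c on astral microtubules, was at 1.98, 1.88 and 1.56 FPKM in stiff gel and 0.929, 0.996 and 0.778 FPKM in soft gel. Its lowest stiff library was above its highest soft one by a wide margin, on 107 to 125 reads per stiff library and 52 to 67 per soft library (log2 fold change 0.56, SE 0.129, limma adjusted p = 0.0996). Kif18a, which damps chromosome movements at the spindle equator, was the scarcest member. It had 0.499, 0.636 and 0.649 FPKM in stiff gel, against 0.323, 0.192 and 0.544 FPKM in soft gel, on 11 to 38 reads per library. Its groups overlapped, since soft replicate 3 exceeded stiff replicate 1, and with the lowered filter the limma adjusted p was 0.504.

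Kif22 is a chromokinesin, which binds chromosome arms and pushes them away from the poles. It stood at 7.81, 6.88 and 7.43 FPKM in stiff gel, against 5.74, 5.86 and 5.82 FPKM in soft gel, where the SD was only 0.0590 FPKM. The stiff libraries were all higher, by 1.57 FPKM on average, but the log2 fold change of 0.30 did not pass (SE 0.0727, limma adjusted p = 0.116).

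When the 8 tested members were counted by analysis setting, Kif20a and Kif23 passed at both other pseudocounts, after equal FPKM sums and after quantile normalization. On recovered reads with voom, a setting chosen after seeing the data, 5 members were called higher, as were 1.49% of all tested genes: Kif20a (adjusted p = 0.0109), Kif23 (0.00700), Kif20b (0.0152), Kif18b (0.0181) and Kif11 (0.0366). Of these, Kif18b and Kif20b had entered the test through their stiff libraries. With no level filter neither Kif20a (limma adjusted p = 0.0684) nor Kif23 (0.0705) passed. With the replicate number as a block neither Kif20a (limma adjusted p = 0.0576) nor Kif23 (0.0655) passed. Kif15 passed in none of the 17 other settings. All tested members kept log2 fold changes above 0 in each setting.

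**Figure D2:**
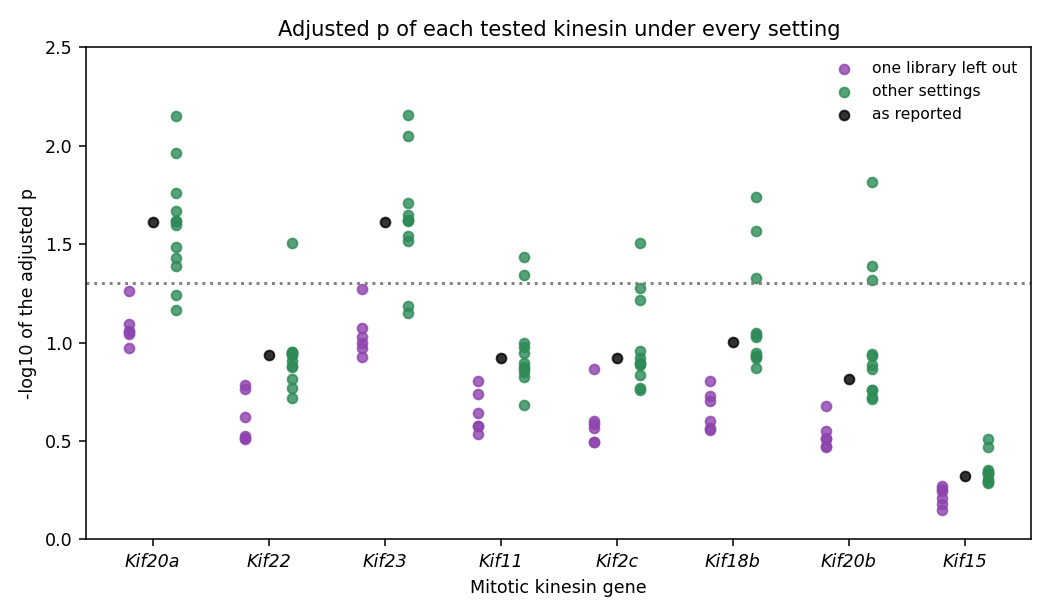
Minus log10 of the adjusted p of the 8 tested kinesins as reported (black), with 1 library left out (purple, 6 fits each) and under the other settings (green); points above the dotted line pass 0.05. No purple point passes for any of the genes.

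The members also varied among libraries of a group. In stiff replicate 2, 7 of the 8 tested members were above their stiff mean, and in stiff replicate 3 only 3 were. In soft gel, 3 of 8 were above their group mean in replicate 1 and 5 in each of replicates 2 and 3. Of the other tested genes, the 5 with a pattern most like the members' mean were Fstl1, a secreted follistatin-like protein, Ltbp1, a latent TGF-beta binding protein, S100a3, a calcium-binding protein, Ttk, the spindle checkpoint kinase, and Sfrp1, a secreted Wnt inhibitor. Likeness was the root mean square difference between z-scored profiles of log2(FPKM + 1) over the 6 libraries, and was 0.0515 for Fstl1 and 0.0706 for Sfrp1. The members' mean profile ran from 0.69 to 1.07 in stiff and from -1.07 to -0.79 in soft libraries. Likeness therefore mostly ranked genes by how evenly they parted the groups. The members themselves lay between 0.147 (Kif20a) and 0.523 (Kif15) from their own mean. Fstl1 was at 437.8 ± 7.40 FPKM in stiff and 348.1 ± 8.06 FPKM in soft gel, and Ttk at 2.12 ± 0.128 FPKM in stiff and 1.26 ± 0.0871 FPKM in soft gel (SD, n = 3 each).

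The remaining kinesin family was examined next, by gene name, with 32 other kinesin genes in the table and 20 over the filter. None passed limma's test in either direction, and the median log2 fold change was -0.02. By limma, 4 of the 20 had an unadjusted p under 0.05, against 1960 of all 12713 tested genes. By voom, 3 were called higher (Kifc1, Kif4a and Cenpe) and 1 lower (Kif26b), against 190 higher and 128 lower over all tested genes. Kif4a averaged 0.879 FPKM in soft gel and passed the level filter through its stiff libraries. Kif1c and Kif5b, transport motors and the most abundant, were at 57.4 ± 3.94 and 37.8 ± 2.61 FPKM in stiff gel, against 61.7 ± 5.11 and 37.5 ± 0.875 FPKM in soft gel. Both pairs of values lay within the spread between libraries.

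Another 9 kinesins had been listed for a mitotic role, of which 8 were in the table and 6 tested, with a median of 0.24. Its 2 most abundant genes, Kif13a and Kif2a, had log2 fold changes of 0.01 and 0.07, and Kif3b, a transport motor, had -0.07. Kif3b and the remaining 3 were named after their values were seen. These 3, which function mainly in mitosis, did not pass. They had every stiff library above every soft one, as did 11.7% of all tested genes. Kifc1, a minus-end motor that focuses spindle poles, had 6.02, 4.74 and 5.25 FPKM in stiff gel, against 3.59, 2.80 and 2.40 FPKM in soft gel (log2 fold change 0.70, limma adjusted p = 0.0615). Kif4a, a chromokinesin of the central spindle, and Cenpe, a kinetochore motor, had log2 fold changes of 0.52 and 0.41 (limma adjusted p = 0.131 and 0.173). Among the 14 tested kinesins with no listed mitotic role, 4 lay above 0, against 50.4% of all tested genes, and the median was -0.07. Kif26b, also named after its values were seen, was the lowest, at 22.2 ± 2.12 FPKM in stiff and 29.9 ± 3.38 FPKM in soft gel (log2 fold change -0.41, limma adjusted p = 0.115).

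**Figure D3:**
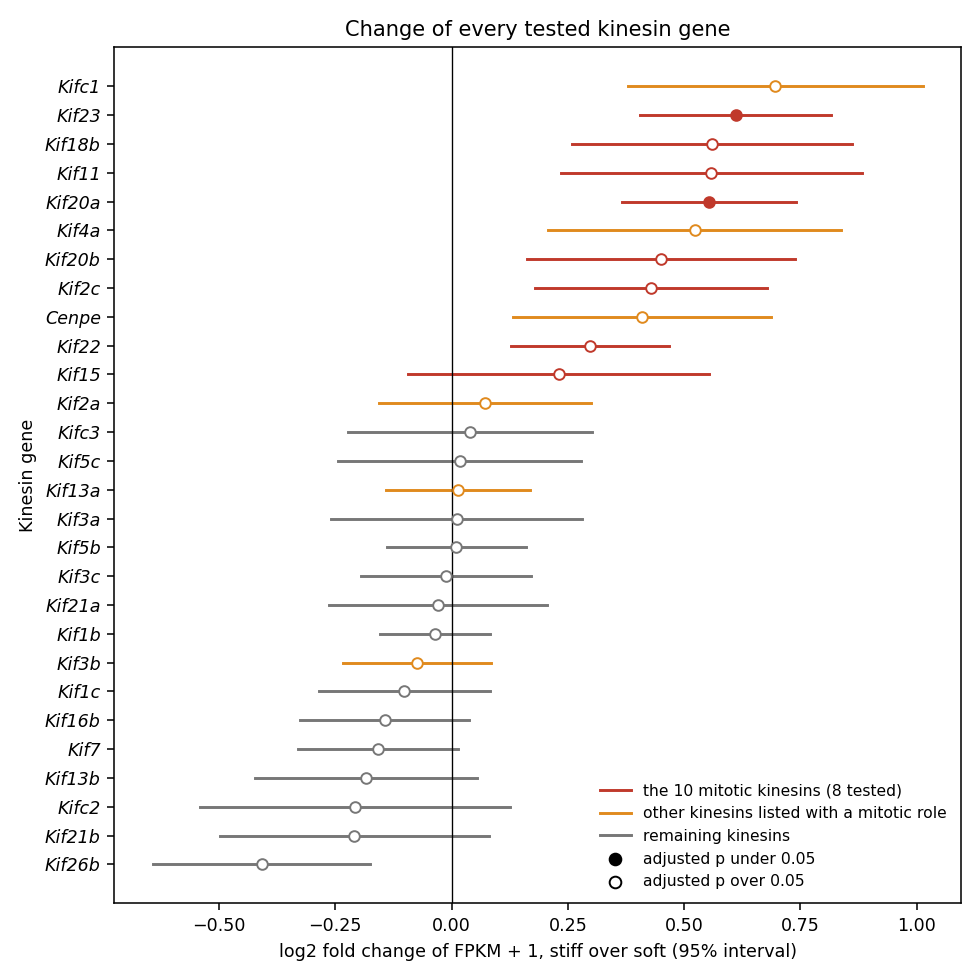
Log2 fold change of FPKM + 1, stiff over soft, of every tested kinesin gene with its 95% interval, which is not adjusted for the number of genes; filled points pass an adjusted p of 0.05. The 8 tested members (red) lie between 0.23 and 0.61, with Kif4a and Cenpe among them and Kifc1 above them at 0.70, while the kinesins without a listed mitotic role lie at 0.04 or lower. Kif4a, Kif18b and Kif20b passed the level filter through their stiff libraries.

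The proteins that work with these motors were described from lists of their own. Of 12 genes of cytokinesis and the central spindle, 4 rose and none fell, all 12 had log2 fold changes above 0, and their median was 0.46. Over all tested genes, 1.01% were called higher, 0.425% were called lower and 50.4% lay above 0. Prc1, the bundling protein that Kif4a and Kif14 bind, was at 9.83 ± 0.535 FPKM in stiff and 5.94 ± 0.395 FPKM in soft gel. Anln, the anillin gene, was at 9.02 ± 0.710 FPKM in stiff and 5.71 ± 0.358 FPKM in soft gel, and Cdca8, a subunit of the passenger complex carried by Kif20a, at 9.18 ± 0.406 FPKM in stiff and 5.53 ± 0.754 FPKM in soft gel (SD, n = 3 each). Plk1, the kinase that docks on the central spindle, had the largest log2 fold change of this list, 0.77. Racgap1, the partner of Kif23, was named after its values were seen: its log2 fold change was 0.34 and did not pass (limma adjusted p = 0.402), with an SD of 0.368 FPKM around 1.01 FPKM in soft gel.

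For the counts that follow, 1.01% of all tested genes were called higher and 50.4% lay above 0. Of 27 tested spindle and kinetochore genes, 3 rose and none fell, with a median of 0.43 and 23 above 0. They were Tpx2 (log2 fold change 0.72), which nucleates spindle microtubules and targets Kif11 and Kif15 to them, and Cdk1 (0.65) and Ccnb1 (0.72), the kinase and cyclin that start mitosis. Cenpa, also in this list, averaged 0.905 FPKM in soft gel and passed the level filter through its stiff libraries. Of the proliferation markers, Top2a rose (0.71) and Mki67 had a log2 fold change of 0.31 (limma adjusted p = 0.182). Among 22 tested DNA replication genes 2 rose, Rrm2 and Tk1, which supply deoxynucleotides, with a median of 0.23. Cdc6, in that list, averaged 0.896 FPKM in soft gel and passed the level filter through its stiff libraries. The partner, replication and proliferation lists held 10 genes called higher. Each lost its call in at least 1 fit without 1 library, with a largest limma adjusted p of 0.0581 (Plk1) to 0.128 (Tk1). All 10 kept their calls without soft replicate 1, and for 6 of the 10 this was the only such fit that passed.

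None of 15 tested transcription regulators of G2 and M phase genes was called by limma (0 by voom, and 1 at an unadjusted p under 0.05), and the median was 0.06. The most abundant of them, Rbbp4, a subunit of MuvB, was at 32.3 ± 1.50 FPKM in stiff and 29.5 ± 0.434 FPKM in soft gel, and E2f4 at 20.4 ± 1.31 FPKM in stiff and 19.2 ± 0.444 FPKM in soft gel. Foxm1, which drives many G2 and M phase genes and was named after its values were seen, was at 3.22 ± 0.305 FPKM in stiff and 2.42 ± 0.252 FPKM in soft gel (log2 fold change 0.30, limma adjusted p = 0.246).

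**Figure D4:**
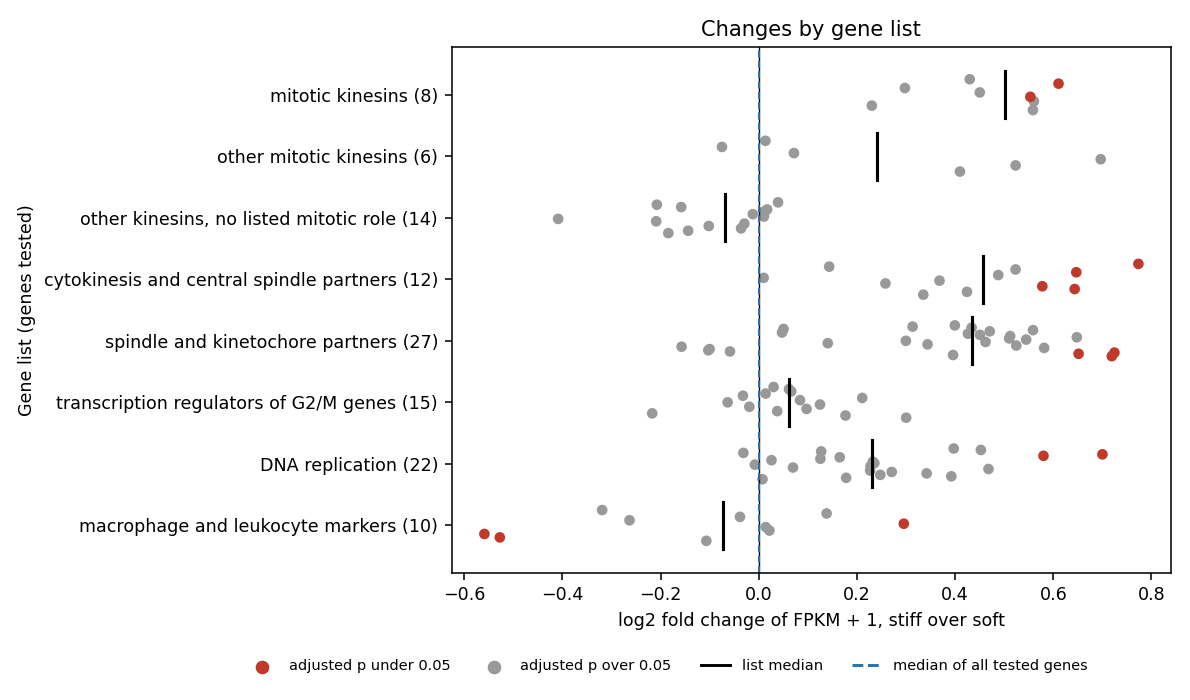
Log2 fold change of FPKM + 1, stiff over soft, of each tested gene by list, with the number tested in brackets; red points pass an adjusted p of 0.05, black bars are list medians and the dashed line is the median of all tested genes. The medians of the mitotic kinesins (0.50) and of both partner lists (0.46 and 0.43) lie to the right of those of the kinesins with no listed mitotic role (-0.07) and of the transcription regulators (0.06). Those of the other mitotic kinesins (0.24) and of DNA replication (0.23) lie in between, and that of the macrophage and leukocyte markers is -0.07. Kif18b, Kif20b, Kif4a, Cenpa and Cdc6 passed the level filter through their stiff libraries.

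Markers of the labelled cell type were present, with 8 of 8 MSC markers tested and 0 called by limma (1 at an unadjusted p under 0.05, 0 by voom). Macrophage and leukocyte markers were present as well, and moved with the groups in part. Of 10 found of 11 listed, Adgre1 rose, and Cd68 and Cd53 fell, where 1.01% of all tested genes were called higher and 0.425% lower. With 1 library left out, Adgre1 passed in 0 of 6 fits (limma adjusted p 0.0610 to 0.164). Cd68 and Cd53 passed in 1 fit each, without soft replicate 1 (0.0330 and 0.0215), and reached 0.119 and 0.122 without stiff replicate 3. Every stiff library lay below every soft one for 4 of the 10 and above for 1, against 1387 and 1492 of all 12713 tested genes. Lyz2, the lysozyme of macrophages and the most abundant, was named after its values were seen and was at 112.5, 116.9 and 128.7 FPKM in stiff gel, against 147.9, 152.9 and 146.1 FPKM in soft gel (limma adjusted p = 0.0606, voom adjusted p = 0.0290). Their summed level ran from 343.4 to 362.2 FPKM in stiff gel and from 385.3 to 390.8 FPKM in soft gel. Their part in the kinesin differences was not tested. Endothelial markers summed to at most 0.488 FPKM in stiff and 0.738 FPKM in soft gel. Of 3 erythroid markers found, the globin genes Hba-a1 and Hbb were listed at 0 in every library, and the sums reached 0.212 FPKM in stiff and 0.211 FPKM in soft gel.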

How the data were processed

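PolyA RNA of 6 libraries was read on an Illumina HiSeq instrument after library construction with the QIAseq FX Single Cell RNA Library Kit, per the labels. The design text speaks of 4 replicates per group; 3 per group were analysed here. The authors deposited FPKM per gene. Bowtie 0.12.9, Cufflinks 2.1.1 and HTSeq appear in the submitters' processing notes, together with mouse builds (mm10, GRCm38), although identifiers in the table are rat Ensembl ones and no build is named there. How strand and multiply mapped reads were handled is not stated.

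Multiplying FPKM by gene length gave multiples of 1 step per library in 100% of values above 0 (within 0.01 of a whole number), so reads were recovered for depth and for voom. Since FPKM are not counts, log2(FPKM + 1) was fitted with limma 3.58.1 (R 4.3.3) for the 12713 genes whose mean reached 1 FPKM. The model held only the group, and used an intensity trend, two-sided tests and a Benjamini-Hochberg threshold of 0.05. With 3 libraries a group, an exact permutation test cannot go below p = 0.1. No 2 libraries of a group agreed within sampling noise (chi-square per degree of freedom 3.71 or more). The value was 16.9 and 13.6 for soft replicate 1 against soft replicates 2 and 3, 3.71 between soft replicates 2 and 3, and 5.45 to 8.67 in stiff gel.

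The members and the lists were chosen with earlier results of these data known. All 10 members are named. Of the other lists, called genes or the 2 most abundant were named, with exceptions stated beside them, together with the 5 genes most like the members. The names Kif4b, Ccnb2, Kifbp, E2f1, Itgam and Pecam1 were not matched and are not analysed here; 1 further marker is left unreported. The alternatives changed the pseudocount, level filter, scaling, variance trend, library weights and block, or dropped 1 library at a time; voom, a length correction and a filter of 0.3 FPKM were added after seeing the data.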

Additional observations from a re-analysis of the deposited data

How the results depend on the processing

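Every alternative kept the 8 tested kinesins above 0, and none of the members was called lower in any. The calls were less stable than the direction, for causes that were not tested. Members called higher numbered 2 as reported, where 128 of 12713 tested genes were called higher (182 called in either direction). Without any filter 0 members were called higher, against 71 of 20495 genes (92 in either direction). At a mean of at least 5 FPKM only Kif20a and Kif22 were left to test. There 1 member was called higher, against 155 of 8882 genes (218 in either direction). Without the intensity trend 4 members were called higher, against 85 of 12713 genes (112 in either direction). With array weights 7 were, against 430 (685 in either direction), and with voom 5, against 190 (318 in either direction). Members called higher numbered 0 in each of the 6 fits without 1 library, when 27 to 159 genes were called in all. Of those genes, 20 to 116 were called higher. The members' median log2 fold change of 0.50 was 0.65 and 0.69 at pseudocounts of 0.25 and 0.1 FPKM, 0.43 at a mean of at least 5 FPKM, 0.71 with voom, and 0.46 to 0.54 with 1 library left out. Of all calls, 128 higher and 54 lower became 88 and 68 at equal FPKM sums and 103 and 68 after quantile normalization.

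With the replicate number as a block, 0 members and 105 genes were called; the adjusted p was 0.0576 for Kif20a and 0.0655 for Kif23. Whether equal numbers mark paired libraries could not be settled from 3 libraries a group. The deviations of same-numbered libraries correlated at 0.0552, 0.116 and -0.0785 over all tested genes, and 3 of 6 libraries correlated best with their own number. Kif14 and Kif18a had as few as 36 and 11 reads in a library.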
